A study of Mus musculus with 20 samples.

Results

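Gene expression in hippocampus was compared with that in frontal cortex of Ncs1-/- mice, using the 10 knockout libraries among the 20 of the study. The members were chosen by the titles of the samples: 5 knockout hippocampus libraries, replicates 1 to 5, were set against 5 knockout cortex libraries, replicates 1 to 5, over the 17148 genes listed for both regions. Both groups carried the same genotype, Ncs1-/- on the C57Bl6/J strain background, and differed in the brain region that was dissected, flash frozen and extracted as total RNA. The other 10 libraries came from Ncs1+/+ mice of the same background, 5 per region, and served as the comparison for the genotype. The sources used here give neither age nor sex, nor how the allele was made or whether animals were pooled. Since no label ties each library to an animal of its own, the p-values below rest on the spread among these samples, part of which may be technical.

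The frontal cortex is built of layers of glutamatergic neurons, among which GABAergic interneurons are scattered. The hippocampal formation relays signals from the granule cells of the dentate gyrus through the pyramidal neurons of field CA3 to those of field CA1, with the small field CA2 between them. These cell types are defined by transcription factors, receptors and adhesion molecules, and a comparison of the 2 regions therefore reads cell composition and cell state together. In bulk tissue, fewer cells of a type and less RNA per cell cannot be told apart. The targeted gene, Ncs1, makes neuronal calcium sensor 1, a relative of recoverin that binds calcium and acts on ion channels, phosphatidylinositol kinases and transmitter release.

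Levels are given as CPM, counts per 1000000 counts of a library, after TMM scaling, which corrects for depth and composition, and differences as log2 of hippocampus over cortex, so that positive values are higher in hippocampus. Values of 5 libraries are listed in the order of replicates 1 to 5, and means carry the SD with n = 5. Knockout cortex libraries held 16609603 to 19912375 counts in all and knockout hippocampus libraries 24041992 to 34612610. The 45S pre-ribosomal RNA took 0.661% to 4.0% of a knockout library. Run names in the labels place all cortex libraries in lane 2 and all hippocampus libraries in lane 1, so region and lane cannot be told apart. Across the 98.2% of tested genes with an exonic length, the log2 difference had a Spearman rho of -0.17 and a Pearson r of -0.08 with that length, as a description over genes that share the 10 libraries.

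The targeted gene was examined first. Ncs1 (chr2:31245923-31295472 in mm10, plus strand) stood at 259, 256, 255, 265 and 259 CPM in knockout cortex and at 384, 351, 365, 387 and 352 CPM in wild-type cortex. In hippocampus the levels were 329, 281, 313, 301 and 279 CPM in knockout and 432, 438, 471, 436 and 427 CPM in wild type. In neither region did the genotypes overlap, knockout being lower, and knockout kept 70.4% of the wild-type level in cortex and 68.0% in hippocampus (geometric means). By exact permutation over 252 arrangements, two-sided, p was 0.00794 for cortex and the same for hippocampus, the smallest value possible. Counts per gene do not show which part of the transcript these reads came from. Between the knockout regions, Ncs1 was higher in hippocampus, with no overlap of the groups and a log2 difference of 0.21 (SE 0.05, adjusted p = 0.0040). The wild-type difference was 0.25 (SE 0.04), so the regional order of this gene was present in both genotypes.

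Of 15032 genes tested in knockout, 5838 (38.8%) passed an adjusted p of 0.05 in edgeR's quasi-likelihood test with Benjamini-Hochberg adjustment. Of these, 2891 (19.2% of the tested genes) were higher in hippocampus and 2947 (19.6%) were lower. These shares are the background for each count of list members. The lists were chosen with earlier results of these data known, so a share above the background is a description and not a test. More genes were higher than lower with total counts as the scaling (3375 and 2663), with all 20 libraries in the fit (3322 and 3092) and without the filter on low counts (3118 and 2892). Most differences were small: 447 genes (2.97%) were called and at least 2-fold higher in hippocampus, 135 (0.898%) at least 4-fold and 43 (0.286%) at least 8-fold, while 601 (4%), 145 (0.965%) and 45 (0.299%) were lower by the same steps. The groups did not overlap for 4482 genes, 29.8% of those tested. The median log2 difference of all tested genes was 0.01. The genes named below come from the largest differences, the smallest p-values and 45 lists of cell type markers and pathways, which together hold 825 distinct tested genes. For Aldh1l1, Amigo2, Cabp7, Cnih2, Ddx28, Doc2b, Dpp6, Gabra5, Gm3696, Grin1, Homer3, Igf2, Necab3, Prox1, Shisa6, Slc1a2, Sstr2 and Wnt7b a gene model on the other strand overlaps, and since no source used here states the strand setting of the counting, reads of the 2 strands cannot be told apart.

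**Figure D1:**
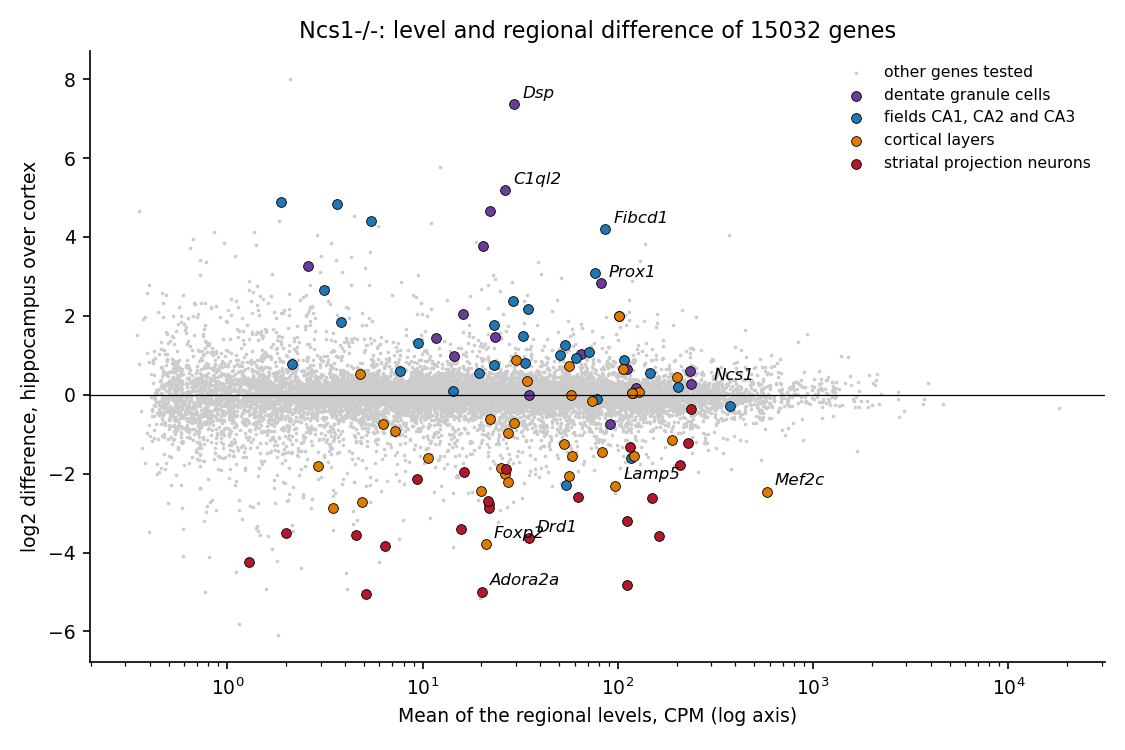
Each point is 1 of the 15032 genes tested in knockout: the horizontal axis is the mean of the 2 regional levels in CPM on a log axis, and the vertical axis is the log2 difference, hippocampus over cortex. Grey points are genes on none of the coloured lists; markers of dentate granule cells and of fields CA1, CA2 and CA3 lie mostly above 0, markers of cortical layers mostly below, and all 22 striatal markers below 0.

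Among called genes without overlap whose higher region averaged 10 CPM or more, the largest difference in favour of hippocampus was that of Dsp, which encodes desmoplakin, a desmosome plaque protein used as a marker of dentate granule cells. Dsp (chr13:38151294-38198578, plus strand) was at 0.407, 0.308, 0.367, 0.201 and 0.484 CPM in cortex and at 38.8, 57.6, 88.5, 48.0 and 60.1 CPM in hippocampus. Every hippocampus library was above every cortex library by a wide margin, and the log2 difference was 7.37 (SE 0.31, adjusted p = 7.7e-10), or 165-fold. Slc9a4, a sodium/proton exchanger, followed with 0.174, 0.411, 0.315, 0.704 and 0.545 CPM in cortex and 25.6, 19.98, 23.6, 27.7 and 23.2 CPM in hippocampus, a log2 difference of 5.77 (SE 0.19, adjusted p = 1.2e-10). C1ql2, a secreted C1q-like protein of mossy fibre synapses, stood at 1.92, 1.54, 0.682, 1.76 and 1.15 CPM in cortex against 53.0, 50.4, 52.9, 63.8 and 37.4 CPM in hippocampus. Its log2 difference was 5.18 (SE 0.20, adjusted p = 4.6e-10), and its lowest hippocampus library was above its highest cortex library. Then came Lct, which encodes lactase, at 4.65 (SE 0.16), Spink8, a Kazal-type protease inhibitor, at 4.4 (SE 0.22), Lhx9, a LIM homeobox transcription factor, at 4.36 (SE 0.16), and Fibcd1, a chitin-binding membrane protein, at 4.19 (SE 0.12). Tspan18, a tetraspanin, Cabp7, a calcium-binding protein of the Golgi, Il16, a cytokine precursor, and Shisa6, an auxiliary subunit of AMPA receptors, were also among the 12 largest, at 3.86, 3.82, 3.78 and 3.39.

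In favour of cortex, the largest difference by the same rule was that of Igfn1, an immunoglobulin-like and fibronectin type III domain gene. Igfn1 (chr1:135953578-136006343, minus strand) was at 29.6, 43.4, 43.8, 31.3 and 42.7 CPM in cortex and 0.298, 2.56, 0.292, 0.776 and 1.46 CPM in hippocampus. The groups were far apart, and the log2 difference was -5.15 (SE 0.37, adjusted p = 1.2e-07). Adora2a, an adenosine receptor of striatal neurons of the indirect pathway, was at 47.6, 21.6, 35.1, 50.7 and 39.5 CPM in cortex and 1.19, 1.32, 1.46, 1.32 and 0.916 CPM in hippocampus. The cortex libraries themselves varied more than 2-fold for Adora2a, and the log2 difference was -4.99 (SE 0.24, adjusted p = 2.9e-09). Dkkl1, a dickkopf-like secreted protein, stood at -4.23 (SE 0.19), Rasgef1c, a guanine nucleotide exchange factor, at -3.85 (SE 0.16), Six3, a homeobox gene, at -3.84 (SE 0.58), and Foxp2, a forkhead gene of deep cortical layers and of striatum, at -3.79 (SE 0.21). Slc5a7, the choline transporter of cholinergic neurons, stood at -3.67 (SE 0.20). Drd1 and Drd2, the dopamine D1 and D2 receptors, Scn4b, a sodium channel beta subunit, and Sema3a, a repulsive guidance ligand, came next at -3.63, -3.40, -3.59 and -3.23.

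The order by p-value was different. The smallest p-values among genes higher in hippocampus belonged to Thsd4, a thrombospondin-type matrix protein (2.97, SE 0.07), Cabp7, Nr3c2, Pcdh20, Olfml2b, an olfactomedin-like matrix protein (2.87, SE 0.07), and Gpr161, an orphan receptor of primary cilia (3.09, SE 0.08). Among genes lower in hippocampus they belonged to Lamp5, a lysosome-associated membrane protein of upper-layer neurons (-2.30, SE 0.05), Cpne5, a copine (-2.14, SE 0.05), Arpp19, a phosphatase regulator (-1.97, SE 0.05), Gm11549 (-2.85, SE 0.07), Efna5 and Scn4b. Cabp7 is one example of the precision: it was at 20.7, 17.97, 16.8, 18.8 and 16.6 CPM in cortex and 310.4, 243, 245, 265 and 224 CPM in hippocampus. Lamp5 is another, at 169, 157, 166, 151 and 162 CPM in cortex and 32.5, 33.8, 34.5, 31.5 and 31.6 CPM in hippocampus, where all 5 libraries lay within a narrow range. Their log2 differences were 3.82 (SE 0.09, adjusted p = 1.3e-11) and -2.30 (SE 0.05, adjusted p = 8.5e-12).

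Markers of dentate granule cells were higher in hippocampus for 14 of 17 tested members, against 19.2% of all genes, and 1 was lower. The median of the list was 1.43. Prox1, the homeobox gene that specifies granule cells, was at 20.2, 17.1, 19.4, 23.0 and 20.5 CPM in cortex and 113, 138, 184, 153 and 127 CPM in hippocampus, with no overlap and a log2 difference of 2.83 (SE 0.12, adjusted p = 1.3e-09). Dsp, C1ql2, Lct and Il16 belong to this list too. Tdo2, tryptophan dioxygenase, differed by 3.25 (SE 0.22) but reached only 4.70 ± 0.470 CPM in hippocampus. C1ql3, a relative of C1ql2, was higher by 0.27 (SE 0.07). The exception was Pdzd2, a PDZ domain protein, which was lower in hippocampus at -0.73 (SE 0.18, adjusted p = 0.0054). In wild type the median of the list was 1.16.

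The dentate gyrus also holds neural stem cells and newborn neurons. Of 14 markers of these stages 12 were tested, 6 were higher in hippocampus, 1 was lower and 5 were not called. Hopx, a homeodomain gene of quiescent stem cells that astrocytes also express, was higher by 1.42 (SE 0.10, adjusted p = 1.0e-07). Neurod1, needed for granule cell maturation, was at 11.97, 12.2, 15.1, 16.1 and 15.4 CPM in cortex and 31.4, 30.5, 37.7, 32.8 and 29.5 CPM in hippocampus, a log2 difference of 1.19 (SE 0.10, adjusted p = 4.8e-07). Calb2, the calcium buffer calretinin, differed by 1.45 (SE 0.20) and Neurog2, a proneural gene, by 2.04 (SE 0.31) at 1.14 ± 0.122 CPM in hippocampus. Dcx, doublecortin of migrating neurons, ran the other way: it was at 46.6, 55.3, 54.9, 48.0 and 50.9 CPM in cortex and 21.5, 23.0, 28.1, 29.1 and 27.5 CPM in hippocampus, with no overlap and a log2 difference of -0.99 (SE 0.09, adjusted p = 9.1e-07). Draxin, a guidance ligand, was higher by 1.11 (SE 0.34), a call lost without cortex replicate 3 or 5 (edgeR adjusted p = 0.053 and 0.0503) and without the 3 libraries with the highest choroid plexus sums (0.81, adjusted p = 0.098). Eomes and Cdk1 were below the filter on low counts. The median of the list was 0.84, and 0.43 in wild type.

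Pyramidal cell markers of all 3 hippocampal fields were mostly higher in hippocampus. For field CA1, 9 of 12 were higher and 1 lower (median 1.17). For field CA2 the numbers were 7 and 1 of 9 (median 1.01), and for field CA3 9 and 2 of 12 (median 0.77). Fibcd1 was at 11.9, 8.83, 7.51, 7.24 and 9.14 CPM in cortex and 194, 146, 165, 152 and 158 CPM in hippocampus, a log2 difference of 4.19 (SE 0.12, adjusted p = 4.5e-11). Gpr161 was at 15.5, 17.2, 14.96, 18.1 and 14.3 CPM in cortex and 145, 117, 148, 139 and 135 CPM in hippocampus, a log2 difference of 3.09 (SE 0.08, adjusted p = 1.6e-11). Both are markers of CA1 neurons, and for both the groups were far apart. Lefty1, a TGF-beta family antagonist, differed by 4.85 (SE 0.15) although it reached only 7.03 ± 0.730 CPM. Dcn, the proteoglycan decorin that is also made by meningeal fibroblasts, was higher by 2.18 (SE 0.14), and Pou3f1, a POU domain gene, by 1.27 (SE 0.10). Wfs1, the gene of wolframin, was not called, with a mean of 116 ± 4.33 CPM in cortex against 119.5 ± 25.1 CPM in hippocampus. Wfs1 marks CA1 neurons and upper cortical layers alike. Without hippocampus replicate 1 there were 2 lower members of the CA1 list.

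For field CA2, Amigo2, an adhesion protein, was at 13.4, 11.1, 8.66, 10.7 and 8.65 CPM in cortex and 37.9, 36.2, 34.3, 40.9 and 31.2 CPM in hippocampus, a log2 difference of 1.77 (SE 0.12, adjusted p = 5.8e-08). Rgs14, a regulator of G protein signalling that limits plasticity in CA2, was higher by 1.01 (SE 0.09), and Ntf3, neurotrophin 3, by 2.64 (SE 0.26). Pcp4, a calmodulin regulator that marks CA2 within the hippocampus and deep layers within the cortex, was lower in hippocampus, at 178, 148, 173, 190.3 and 182 CPM in cortex and 61.1, 64.6, 49.8, 58.5 and 55.8 CPM in hippocampus. Its log2 difference was -1.59 (SE 0.08, adjusted p = 3.5e-09). For field CA3, St18, a zinc finger gene, was higher by 2.39 (SE 0.09), Grik4, a kainate receptor subunit, by 1.5 (SE 0.08), Cpne4, a copine, by 0.88 (SE 0.05), and Iyd, an iodotyrosine deiodinase, by 4.88 (SE 0.33) at 3.67 ± 0.732 CPM in hippocampus. Crym, a thyroid hormone-binding protein, was higher by 1.98 (SE 0.11). Against the list's direction, Coch, cochlin of the extracellular matrix, was lower at -2.77 (SE 0.24) and Spock1, a proteoglycan, at -0.28 (SE 0.04). Of 7 markers of hilar mossy cells 5 were higher, among them Csf2rb2, a cytokine receptor subunit with a close copy that can share its reads (2.14, SE 0.29), and Calb2, and 1, Drd2, was lower.

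Cortical layer markers showed the opposite order. Of 12 markers of layers 2 to 4, 9 were lower in hippocampus, against 19.6% of all genes, and 1 was higher. The median was -1.78. Mef2c, a transcription factor of the MADS family, was at 916, 1032, 1000.3, 894 and 1037 CPM in cortex and 141, 194, 191, 148 and 217 CPM in hippocampus, a log2 difference of -2.46 (SE 0.11, adjusted p = 1.6e-09). Cux2, a homeobox gene of upper layers, was at 82.5, 90.4, 97.0, 76.0 and 105 CPM in cortex and 15.4, 25.8, 21.5, 17.7 and 28.1 CPM in hippocampus, a log2 difference of -2.06 (SE 0.15, adjusted p = 1.4e-07). Neither pair of groups overlapped. Otof, otoferlin, was lower at -2.43 (SE 0.09), Rspo1, a Wnt agonist, at -2.73 (SE 0.13), Stard8, a GTPase activator, at -2.01 (SE 0.07), Rorb, a nuclear receptor of layer 4, at -1.55 (SE 0.07), and Cux1 at -1.44 (SE 0.07). Scnn1a, an epithelial sodium channel subunit, was the member that was higher in hippocampus, by 0.53 (SE 0.13). Calb1, the calcium buffer calbindin, which granule cells and upper layers share, was not called, with a mean of 126 ± 11.4 CPM in cortex against 132 ± 14.7 CPM in hippocampus.

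Layers 5 and 6 were mixed: of 21 tested markers 13 were lower in hippocampus, 6 were higher and 2 were not called (median -0.73). Foxp2 was at 43.5, 36.8, 37.1, 42.5 and 36.5 CPM in cortex and 2.23, 2.64, 1.38, 2.99 and 4.70 CPM in hippocampus. Tbr1, a T-box gene of corticothalamic neurons, was at 185, 181, 182, 170.2 and 186 CPM in cortex and 57.9, 65.3, 62.0, 52.8 and 71.8 CPM in hippocampus. Their log2 differences were -3.79 (SE 0.21, adjusted p = 1.2e-08) and -1.55 (SE 0.07, adjusted p = 1.9e-09), with no overlap. Syt6, a synaptotagmin, was lower at -2.20 (SE 0.09), Hs3st2, a heparan sulphate sulphotransferase, at -1.86 (SE 0.07), and Myl4, a myosin light chain, at -2.87 (SE 0.16). The members that were higher in hippocampus were Crym, Fezf2, the determinant of subcerebral projection neurons (0.87, SE 0.07), Bcl6, a transcriptional repressor (0.72, SE 0.07), Etv1, an ETS factor (0.64, SE 0.08), Bcl11b, a zinc finger factor (0.45, SE 0.07), and Parm1 (0.34, SE 0.08). Sulf1, a sulphatase, was not called. It was at 30.4, 24.6, 26.7, 24.7 and 26.4 CPM in cortex and 5.09, 56.0, 5.22, 12.3 and 9.62 CPM in hippocampus, where replicate 2 stood far above the others. Without that library Sulf1 was lower in hippocampus, at -1.73 (edgeR adjusted p = 4.9e-05).

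Markers of striatal projection neurons, which make up most of the striatum below the cortex, were all lower in hippocampus: 22 of 22, with a median of -3.03. Drd1 was at 69.0, 47.9, 65.6, 81.4 and 58.8 CPM in cortex and 4.19, 5.91, 4.76, 4.97 and 6.27 CPM in hippocampus. Penk, the precursor of enkephalins, was at 220.1, 143, 197, 261 and 179 CPM in cortex and 26.4, 18.4, 18.8, 26.7 and 19.5 CPM in hippocampus. Ppp1r1b, the phosphatase inhibitor DARPP-32, was at 287, 186, 243, 306 and 271 CPM in cortex and 38.9, 71.0, 31.3, 37.3 and 32.6 CPM in hippocampus, with replicate 2 the highest there. The groups did not overlap for these 3 genes, and their log2 differences were -3.63 (SE 0.15, adjusted p = 7.2e-10), -3.19 (SE 0.16, adjusted p = 5.7e-09) and -2.62 (SE 0.21, adjusted p = 4.3e-07). Scn4b, Rgs9, a regulator of G protein signalling (-2.60, SE 0.11), and Tac1, the precursor of substance P (-2.87, SE 0.11), were lower as well. The smallest difference was that of Gng7, a G protein subunit, at -0.35 (SE 0.10, adjusted p = 0.017). Summed over the list, cortex libraries held 1855 to 3074 CPM and hippocampus libraries 626 to 686. The label of these libraries is frontal cortex, and their striatal markers are not at 0. Cortical neurons express several of these genes too, and what part striatal tissue had in the differences was not tested.

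**Figure D2:**
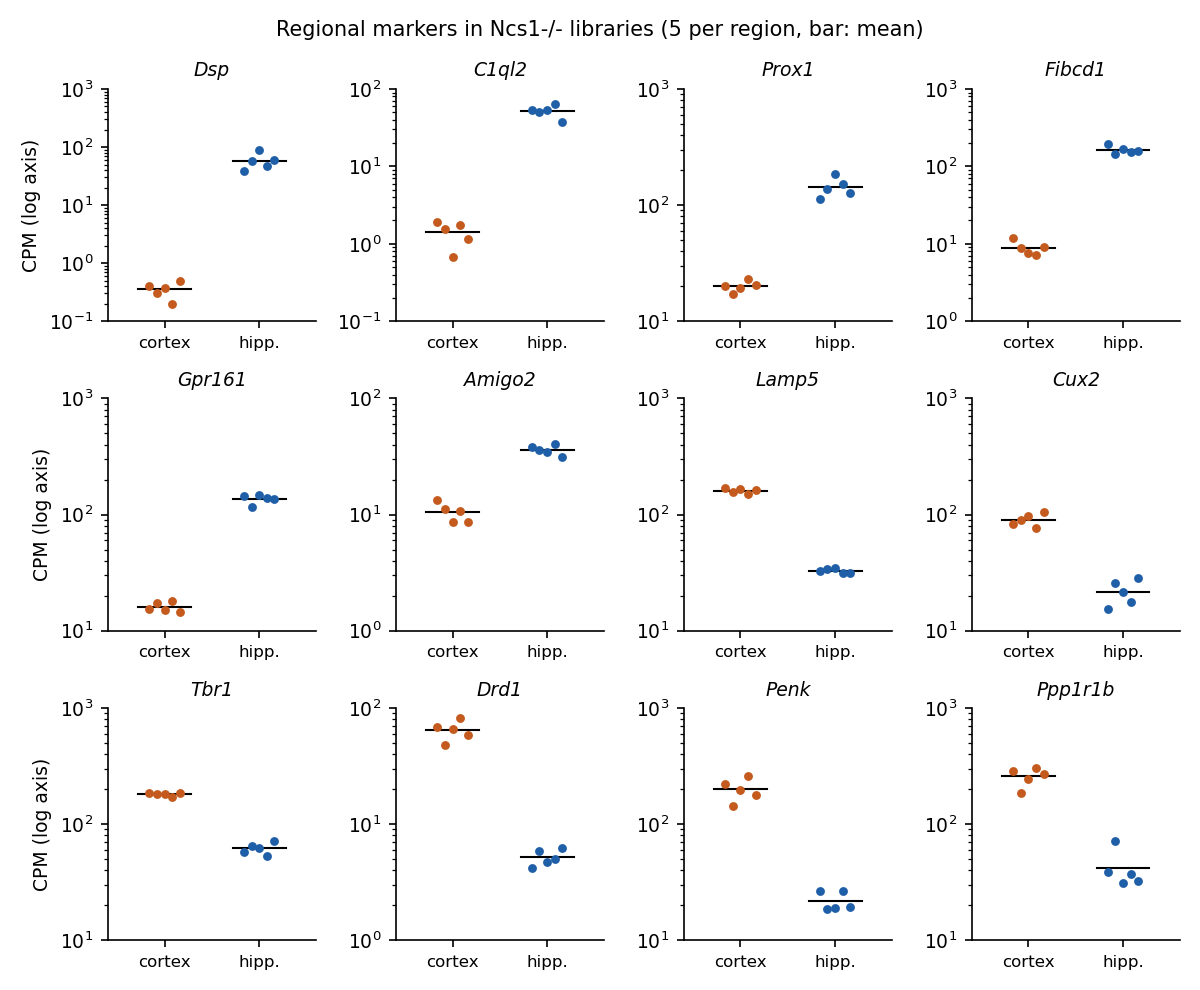
Levels of 12 genes named above in the 10 knockout libraries, in CPM on a log axis, with 1 point per library and a bar at the mean of the 5 libraries of a region. Cortex and hippocampus points do not overlap for any of the 12 genes, and the cortex points of Drd1, Penk and Ppp1r1b spread more than those of Lamp5.

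Lists of thalamic and olfactory bulb neurons served as further checks of the dissection. Of 10 tested markers of thalamic neurons 3 were higher and 3 lower in hippocampus, against 19.2% and 19.6% of all tested genes. The 4 not called were Tcf7l2 (-0.01), Lef1 (-0.11), Synpo2 (-0.01) and Zic1 (0.15). Calb2, a member of other lists too, was among the higher ones. Prkcd, a protein kinase C, was higher by 1.55 (SE 0.24), and Rora, a nuclear receptor that cortical layer 4 also expresses, was lower at -1.33 (SE 0.10). Of 7 tested markers of olfactory bulb neurons 3 were lower, 1 was higher and 3 were not called, beside the same shares. Among the lower ones was Th, tyrosine hydroxylase, with a mean of 1.40 ± 0.535 CPM in cortex against 0.380 ± 0.102 CPM in hippocampus. Trh, the thyrotropin-releasing hormone precursor, was lower at -3.33 (SE 0.51). The 1 member called higher, Nmb, the neuromedin B precursor (0.62, SE 0.22, adjusted p = 0.038), lost its call without cortex replicate 1, 3, 4 or 5 and without hippocampus replicate 1, 3 or 4, with edgeR adjusted p-values of 0.061 to 0.097, and with DESeq2 (adjusted p = 0.082), the replicate block (0.068) and all 20 libraries in the fit (0.103).

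Markers of the choroid plexus, the secretory epithelium of the ventricles that lies against the hippocampus, varied widely between libraries. Their sum was 645 CPM in cortex replicate 1 and 219.6 to 237 CPM in the other cortex libraries. In hippocampus it was 229.6, 5858, 162, 849 and 225 CPM, so that replicate 2 stood far above all others and replicate 4 came next. Ttr, transthyretin, a major product of this epithelium, was at 207, 0.719, 0.105, 1.76 and 0.242 CPM in cortex and 28.9, 3119, 2.96, 319.6 and 11.3 CPM in hippocampus, and was not called (4.06, SE 1.87, adjusted p = 0.11), although it was without cortex replicate 1 (9.89, adjusted p = 0.0072). In the cortex libraries other than replicate 1, Ttr made up little of the sum, nearly all of which came from other members of the list. Of 12 tested members 5 were higher in hippocampus, led by Kl, the gene of klotho, at 3.37 (SE 0.71, adjusted p = 0.0020), and the median was 3.07. The count ranged from 3 to 9 when libraries were left out in turn, and moved by more than 1.5 times for each library but hippocampus replicate 4. Without hippocampus replicate 2 the median was 0.91, and without cortex replicate 1 it was 4.06. When the 3 libraries with the highest sums were left out together, 5 members were higher, 2 were lower, Clic6, a chloride channel protein, and Enpp2, autotaxin, and the median was 1.18. In that fit 4645 of all genes tested were called, 2259 higher and 2386 lower.

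Ependymal cells line the ventricles with motile cilia. Of 10 tested markers 9 were higher in hippocampus and the other was not called, with a median of 1.41. Foxj1, the master regulator of motile cilia, was at 4.82, 3.75, 4.25, 4.57 and 2.36 CPM in cortex and 6.93, 16.1, 7.09, 13.2 and 7.24 CPM in hippocampus. Its log2 difference was 1.34 (SE 0.27, adjusted p = 0.0014), and the hippocampus libraries with the highest choroid plexus sums, replicates 2 and 4, also had the highest Foxj1 levels. Ccdc153, a coiled-coil protein of cilia, and Ak7, an adenylate kinase of cilia, differed by 2.56 (SE 0.27) and 2.06 (SE 0.27). Without the 3 libraries with the highest choroid plexus sums the median was 0.94 and 7 members were higher. What part ventricle lining had in other differences was not tested.

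Meningeal fibroblast markers, a sign of attached brain membranes, did not separate the regions: of 15 tested members 2 were higher, 1 was lower and 12 were not called. Their sum was 175 to 249 CPM in cortex, and in hippocampus 445 CPM in replicate 2, 455 CPM in replicate 5 and 126 to 161 CPM in the other 3. Without hippocampus replicate 5, 7 members were lower. The 1 that was lower was Nupr1, a stress-response gene (-0.83, SE 0.25), and the 2 that were higher were Dcn and Lum, the related proteoglycan lumican (0.98, SE 0.19). Igf2, insulin-like growth factor 2, which meninges and choroid plexus express, was at 96.6, 66.5, 77.5, 57.1 and 72.0 CPM in cortex and 33.3, 249, 39.8, 49.2 and 148 CPM in hippocampus and was not called. Haemoglobin and heme synthesis genes, which read residual blood, were lower in hippocampus for 3 of 6 members, against 19.6% of all tested genes. The 3 were the related beta-globin genes Hbb-bs, Hbb-bt and Hbb-b1, at -0.63, -0.65 and -0.63, which can share reads. Hba-a1, Hba-a2 and Alas2 were not called. The number of lower members ranged from 0 to 4 when libraries were left out in turn. It moved by more than 1.5 times without cortex replicate 1, 2, 3 or 5 and without hippocampus replicate 3 or 4.

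None of 16 microglia markers was called by edgeR, with a median of 0.07, and DESeq2 and limma-voom called none of them either. With total counts as the scaling, without the filter on low counts and with the replicate number as a block edgeR called C1qa higher (log2 differences 0.15 to 0.18, adjusted p-values of 0.026 to 0.048). Unadjusted, 1 of them (C1qa, a complement subunit) had a p under 0.05. C1qa was called higher without cortex replicate 4 or hippocampus replicate 2, and 1 other marker without hippocampus replicate 5. Cx3cr1, the fractalkine receptor, was at 61.0, 46.3, 51.4, 49.6 and 52.1 CPM in cortex and 51.3, 51.8, 45.7, 51.6 and 46.3 CPM in hippocampus, with overlapping groups. Of 18 astrocyte markers 7 were higher and 4 lower, against 19.2% and 19.6% of all tested genes. Gfap, the glial filament protein, was at 88.5, 83.4, 90.2, 97.5 and 77.2 CPM in cortex and 313, 286, 275, 325 and 291 CPM in hippocampus, with no overlap and a log2 difference of 1.76 (SE 0.07, adjusted p = 3.6e-10). Thbs4, a thrombospondin, was higher by 1.42 (SE 0.11) and Aqp4, the water channel of astrocyte endfeet, by 0.37 (SE 0.07). Aldh1l1, an enzyme of folate metabolism and a general astrocyte marker, was lower at -0.34 (SE 0.05), and Slc1a2, the main glutamate transporter, at -0.24 (SE 0.05).

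Oligodendrocytes form the myelin of both regions. Of 18 oligodendrocyte markers 3 were higher, 1 was lower and 14 were not called (median 0.23), against 19.2% of all tested genes called higher and 19.6% lower. Mbp, myelin basic protein, was at 1276, 1335, 1234, 1281 and 1303 CPM in cortex and 1941, 2002, 1352, 1940.5 and 1691 CPM in hippocampus, a log2 difference of 0.47 (SE 0.09, adjusted p = 7.5e-04). Hippocampus replicate 3 was the lowest of its group. Without that library 13 of the 18 members were called higher. Klk6, a serine protease, was lower at -1.44 (SE 0.34). Of 11 precursor markers 3 were higher and Lhfpl3 was lower at -0.47 (SE 0.06); the number higher was 6 without hippocampus replicate 3 and also without cortex replicate 1. Of 17 markers of endothelial cells and pericytes 5 were lower in hippocampus, against 19.6% of all tested genes, led by Flt1, a receptor of vascular endothelial growth factor, at -0.37 (SE 0.05, adjusted p = 6.6e-05), and Abcc9, a pericyte channel subunit, at -0.56 (SE 0.10, adjusted p = 4.0e-04). The others were not called, except that 1 was higher without cortex replicate 1.

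GABAergic interneuron markers were lower in hippocampus for 13 of 25 members and higher for 3 (median -0.29). Slc32a1, the vesicular GABA transporter, was at 108, 85.4, 80.6, 86.8 and 84.8 CPM in cortex and 53.7, 54.5, 49.1, 65.7 and 50.7 CPM in hippocampus, with a log2 difference of -0.71 (SE 0.09, adjusted p = 3.4e-05). Vip, vasoactive intestinal peptide, was lower at -0.99 (SE 0.08), Npy, neuropeptide Y, at -0.98 (SE 0.09), Crh, corticotropin-releasing hormone, at -1.80 (SE 0.16), and Pvalb, the calcium buffer of fast-spiking cells, at -0.68 (SE 0.09). Nos1, neuronal nitric oxide synthase, was higher by 0.89 (SE 0.10) and Htr3a, a serotonin-gated channel subunit, by 1.2 (SE 0.13). The third member that was higher was Calb2. Striatal projection neurons also use GABA. The sum of striatal markers given above was higher in cortex too, and its part in this list was not tested.

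**Figure D3:**
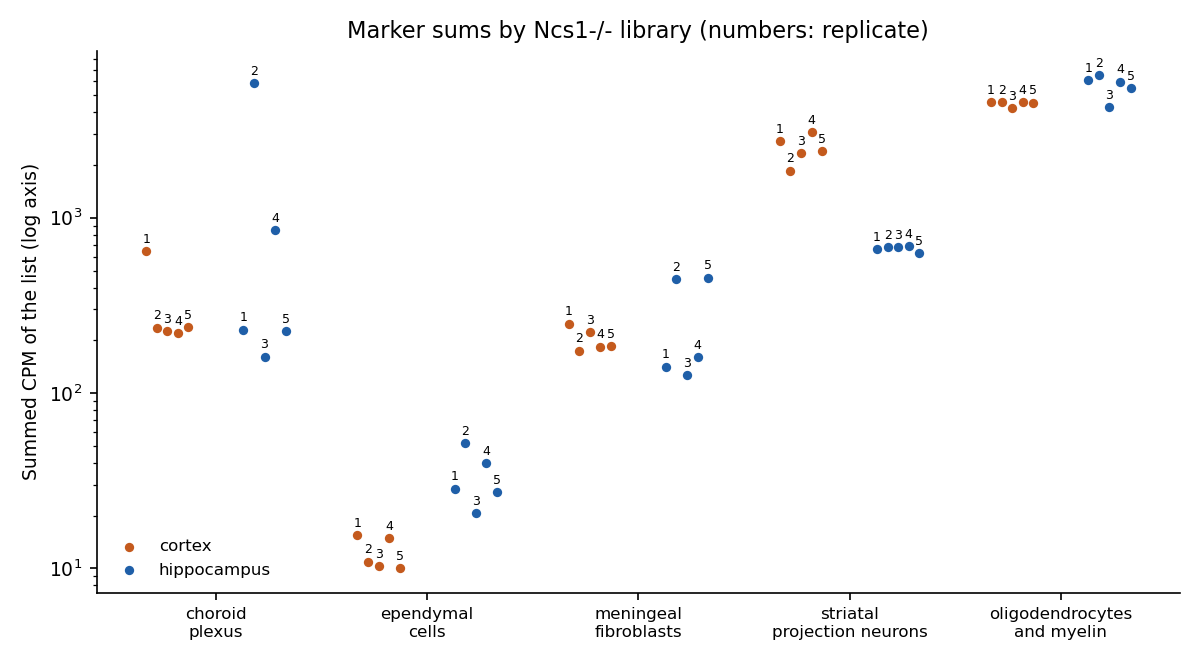
Summed CPM of 5 marker lists in the 10 knockout libraries on a log axis, with 1 point per library and its replicate number beside it. The choroid plexus sum of hippocampus replicate 2 lies far above all others, and for the striatal list every cortex library lies above every hippocampus library.

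**Figure D4:**
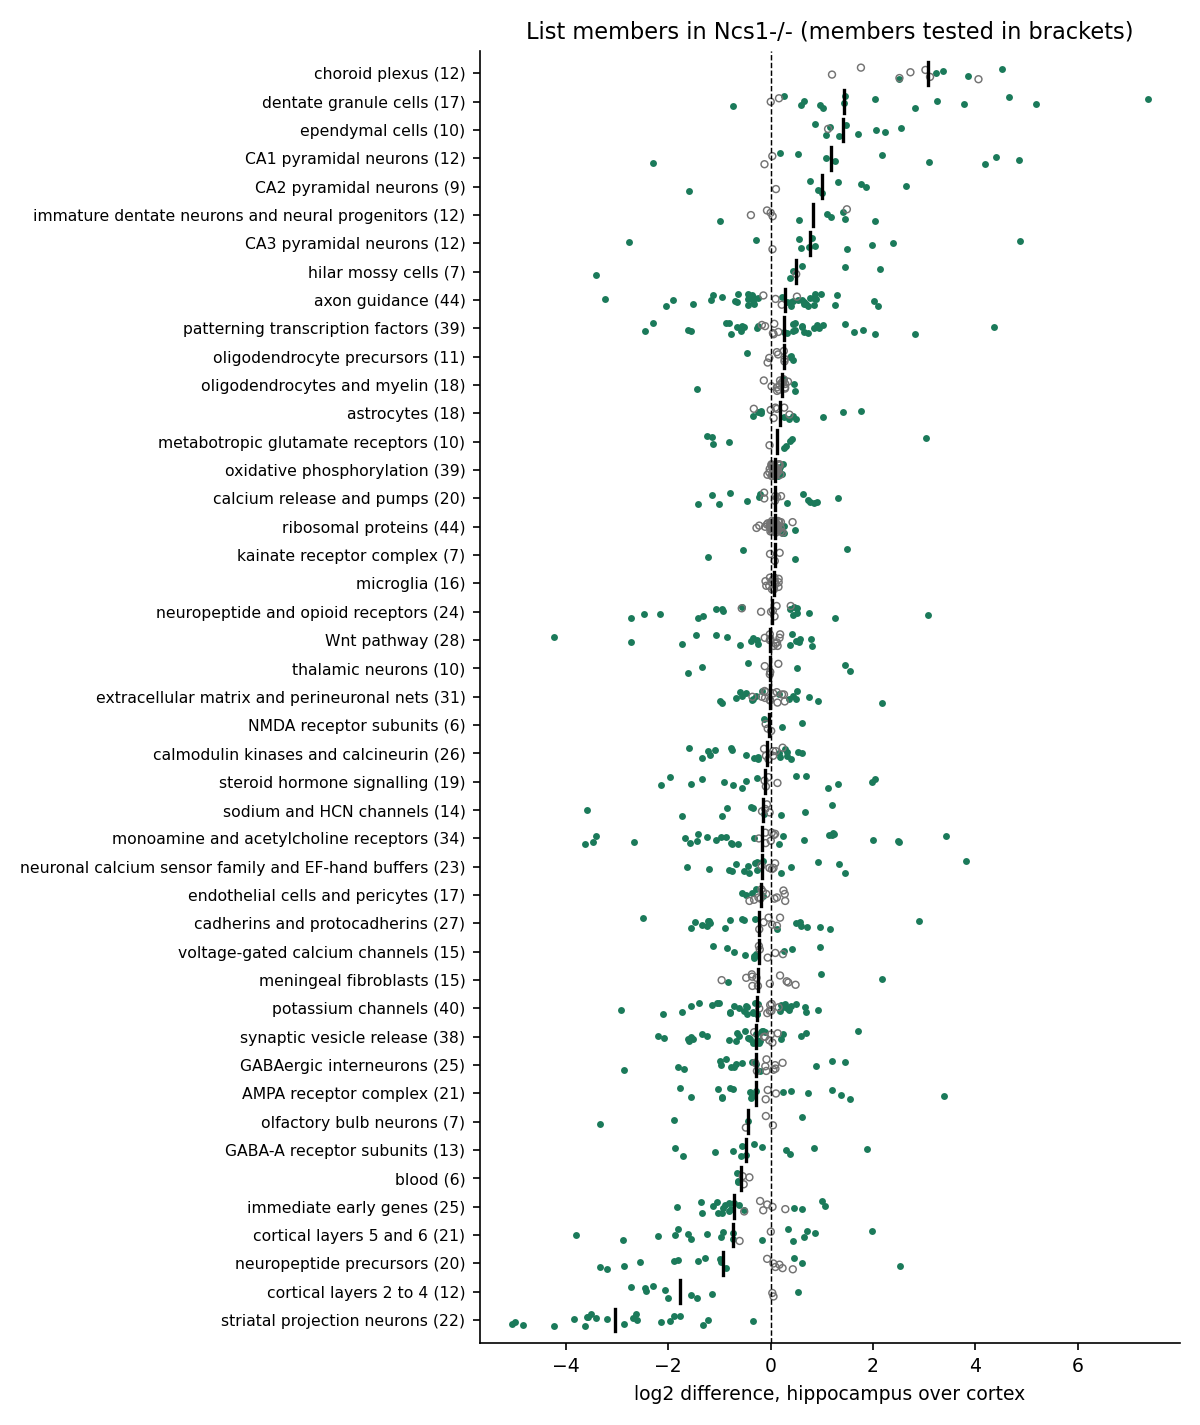
Log2 differences, hippocampus over cortex, of the tested members of 45 lists, with 1 point per gene and a bar at the median of each list. Filled points passed an adjusted p of 0.05 and open points did not; the dashed line marks the median of all tested genes, 0.01, and the medians run from -3.03 for striatal projection neurons to 3.07 for choroid plexus.

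Fast glutamate transmission runs through AMPA receptors, which are assembled from pore subunits and auxiliary proteins. Of 21 members of this complex 7 were higher and 11 lower in hippocampus. Gria1, the GluA1 pore subunit, was at 486, 451, 459.5, 515 and 449 CPM in cortex and 1430.4, 1298, 1489.9, 1413 and 1318 CPM in hippocampus, a log2 difference of 1.55 (SE 0.05, adjusted p = 1.4e-10). Gria2 was higher by 0.40 (SE 0.06), whereas Gria3 and Gria4 were lower, at -0.37 (SE 0.06) and -0.78 (SE 0.05). Among auxiliary subunits Shisa6 was at 21.6, 20.3, 22.8, 27.2 and 20.6 CPM in cortex and 204, 214, 269.9, 278 and 220.2 CPM in hippocampus, with no overlap and a log2 difference of 3.39 (SE 0.11, adjusted p = 9.5e-11). Cnih2, a cornichon, and Cacng8, the TARP gamma-8, were higher by 1.38 (SE 0.09) and 1.19 (SE 0.07). Olfm2, an olfactomedin, Nptx2, a secreted pentraxin that clusters receptors, and Shisa9 were lower, at -1.55 (SE 0.10), -0.96 (SE 0.09) and -0.29 (SE 0.07), while the pentraxin Nptx1 was higher by 0.74 (SE 0.06). The members thus split by subunit, and no single direction described the complex.

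NMDA receptors are glutamate-gated channels that admit calcium and trigger synaptic plasticity. Of 6 tested subunits Grin2a and Grin2b were higher, by 0.60 (SE 0.08) and 0.22 (SE 0.07), and with all 20 libraries in the fit Grin2b lost its call (0.23, edgeR adjusted p = 0.13). Grin1, the obligatory subunit, was at 395, 413, 402, 392 and 435 CPM in cortex and 404, 374, 440.2, 427 and 418 CPM in hippocampus, with overlapping groups and no call. Grin2c was called lower at -0.13 (SE 0.05, adjusted p = 0.042), a call that held only without hippocampus replicate 1 or 4 among the fits that left out a library, the other 8 giving edgeR adjusted p-values of 0.052 to 0.11. The call was also lost with total counts (adjusted p = 0.094), no filter on low counts (0.075) and all 20 libraries in the fit (0.11). Of the kainate receptor complex Grik4 and the auxiliary subunit Neto1 (0.49, SE 0.05) were higher, and Grik3 (-1.23, SE 0.09) and Neto2 (-0.54, SE 0.07) lower, out of 7. Over all tested genes the shares were 19.2% higher and 19.6% lower. Metabotropic receptors and their Homer scaffolds had 5 of 10 higher and 4 lower. Homer3 was higher by 3.04 (SE 0.11), while the receptors Grm3, Grm4 and Grm8 and the scaffold Homer1 were lower at -1.12 (SE 0.06), -1.24 (SE 0.08), -1.15 (SE 0.10) and -0.80 (SE 0.06).

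GABA-A receptors are pentamers whose subunits set where the receptor sits and how it responds. All 13 tested subunits were called, 4 higher and 9 lower in hippocampus (median -0.47). Gabra5, the extrasynaptic alpha-5 subunit, was at 61.2, 55.6, 58.2, 57.7 and 58.7 CPM in cortex and 239.5, 199, 214, 208 and 215 CPM in hippocampus, a log2 difference of 1.88 (SE 0.05, adjusted p = 3.8e-11). Gabrb1 and Gabra2 were higher as well, by 0.38 (SE 0.09) and 0.85 (SE 0.26). Gabrd, the delta subunit of tonic inhibition, was at 50.03, 46.5, 44.4, 45.5 and 50.9 CPM in cortex and 15.9, 16.5, 16.2, 11.5 and 12.5 CPM in hippocampus, a log2 difference of -1.72 (SE 0.10, adjusted p = 1.9e-08). Gabra3, Gabrg3 and Gabrb2 were lower at -1.09 (SE 0.05), -0.74 (SE 0.06) and -0.55 (SE 0.06).

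Receptors for monoamines and acetylcholine were called in 27 of 34 tested cases, 11 higher and 16 lower. Among dopamine receptors Drd5, the D5 receptor, was at 3.02, 3.23, 2.26, 2.61 and 2.72 CPM in cortex and 16.6, 15.3, 16.5, 15.8 and 13.9 CPM in hippocampus, a log2 difference of 2.49 (SE 0.10, adjusted p = 7.2e-10), against negative differences of Drd1 and Drd2. Among serotonin receptors Htr5b, Htr4 and Htr1a were higher, by 3.42 (SE 0.23), 1.99 (SE 0.11) and 1.23 (SE 0.06), and Htr2a was lower at -1.67 (SE 0.13). The adrenergic receptors Adra1d and Adra1b differed in sign, at 1.23 (SE 0.07, adjusted p = 8.8e-09) and -2.67 (SE 0.12, adjusted p = 1.2e-09). The muscarinic receptors Chrm5 and Chrm1 were higher by 2.51 (SE 0.26) and 0.23 (SE 0.06), and the nicotinic subunits Chrna5 and Chrna7 by 1.14 (SE 0.12) and 0.65 (SE 0.14).

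Neuropeptide precursors were mostly lower in hippocampus, 11 of 20, with 3 higher and a median of -0.92. Penk, Tac1 and Pdyn, the prodynorphin gene (-1.88, SE 0.09), are striatal markers as well. Outside the striatal list, Cartpt, a satiety peptide precursor, was at 7.32, 5.75, 6.19, 5.68 and 4.78 CPM in cortex and 1.04, 1.40, 0.751, 1.01 and 0.859 CPM in hippocampus, a log2 difference of -2.56 (SE 0.18, adjusted p = 9.2e-08). Grp, gastrin-releasing peptide, was higher by 2.53 (SE 0.18) and Bdnf, brain-derived neurotrophic factor, by 0.46 (SE 0.07). Among 24 peptide receptors 8 were higher and 9 lower, against 19.2% and 19.6% of all tested genes. Npy2r, a presynaptic receptor of neuropeptide Y, was at 10.5, 6.47, 6.56, 11.4 and 8.17 CPM in cortex and 78.7, 66.2, 75.0, 74.7 and 68.4 CPM in hippocampus, with no overlap and a log2 difference of 3.07 (SE 0.13, adjusted p = 1.3e-09). Cckbr, the cholecystokinin B receptor, was lower at -2.73 (SE 0.17), Oprk1, the kappa opioid receptor, at -2.47 (SE 0.14), Tacr1, the substance P receptor, at -2.15 (SE 0.19), and Sstr2, a somatostatin receptor, at -1.32 (SE 0.07).

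Ion channels set the excitability of neurons. Of 40 potassium channel genes 22 were lower in hippocampus and 11 higher, against 19.6% and 19.2% of all tested genes, and of 14 sodium and HCN channel genes 7 were lower and 3 higher. Kcnh5 and Kcnh1, of the ether-a-go-go family, were lower at -2.91 (SE 0.15) and -1.14 (SE 0.06), Dpp10, a Kv4 auxiliary subunit, at -1.73 (SE 0.08), and Kcnv1, a silent subunit, at -1.39 (SE 0.07). Dpp6, the relative of Dpp10, was higher by 0.68 (SE 0.05), as was Kcnn2, the SK2 channel, by 0.93 (SE 0.07). Scn3b, a sodium channel beta subunit, was at 145, 139, 139, 161 and 142 CPM in cortex and 322, 321, 351, 336 and 338 CPM in hippocampus, a log2 difference of 1.2 (SE 0.05, adjusted p = 8.0e-10), opposite to Scn4b. Hcn4, a pacemaker channel, was lower at -1.74 (SE 0.13). Of 15 voltage-gated calcium channel subunits 7 were lower, led by Cacnb4 (-1.12, SE 0.08) and Cacna1i (-0.71, SE 0.06), and 3 higher, led by Cacna1h (0.97, SE 0.09). For the sodium and HCN channels and the calcium channels, the share called higher was near the 19.2% of all tested genes.

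The relatives of Ncs1 were read as a group. Of 23 tested genes of neuronal calcium sensors and EF-hand buffers 6 were higher and 12 lower in hippocampus, with a median of -0.18. Hpca, hippocalcin, the sensor named for its abundance in hippocampus, was at 498, 415, 473, 508 and 482 CPM in cortex and 1521, 1132, 1088, 1189.9 and 1059.9 CPM in hippocampus, a log2 difference of 1.33 (SE 0.09, adjusted p = 9.5e-08). Vsnl1, visinin-like 1, was at 788, 779.6, 755, 731 and 743 CPM in cortex and 603, 574, 502, 515 and 596 CPM in hippocampus, a log2 difference of -0.45 (SE 0.06, adjusted p = 2.4e-05). Ncald, neurocalcin delta, was lower at -0.26 (SE 0.04). Of the Kv4 partners of this family Kcnip3 was lower (-0.52, SE 0.04) and Kcnip2 higher (0.40, SE 0.08). Necab3 and Cabp1 were lower at -1.63 (SE 0.07) and -1.2 (SE 0.09), Necab2 higher by 0.92 (SE 0.10). In wild type the difference was 1.36 (SE 0.10) for Hpca, -0.49 (SE 0.09) for Vsnl1 and -0.40 (SE 0.06) for Ncald.

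Calcium handling split by gene as well. Of 20 genes of calcium release, entry and pumps 7 were higher and 7 lower, against 19.2% and 19.6% of all tested genes. Orai2, a store-operated channel, and Stim2, its sensor in the endoplasmic reticulum, were higher by 1.31 (SE 0.05) and 0.91 (SE 0.04). Atp2b2, a plasma membrane calcium pump, was at 1198, 1234, 1237, 1164 and 1278 CPM in cortex and 495, 554, 581, 559 and 571 CPM in hippocampus, a log2 difference of -1.15 (SE 0.05, adjusted p = 7.5e-10). Its relatives Atp2b4 and Atp2b3 stood at -1.41 (SE 0.10) and 0.74 (SE 0.06), and Itpr1, the inositol trisphosphate receptor, at -1.02 (SE 0.07). Against the same shares, 8 of 26 genes of calmodulin kinases and calcineurin were higher, with Camk2b at 0.61 (SE 0.05). Another 11 were lower, with Camkk2 at -1.22 (SE 0.04), Rcan2 at -1.08 (SE 0.04) and Camk4 at -1.18 (SE 0.06).

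Genes of synaptic vesicle release were lower in hippocampus in 26 of 38 cases and higher in 5 (median -0.28). Rims3, a gamma-RIM of the active zone, was at 285, 273, 283, 248 and 284 CPM in cortex and 62.2, 64.3, 64.8, 52.2 and 80.3 CPM in hippocampus, a log2 difference of -2.09 (SE 0.09, adjusted p = 1.4e-09). Stx1a, the SNARE protein syntaxin 1A, was lower at -1.51 (SE 0.08) and Syt2, a fast calcium sensor, at -1.35 (SE 0.07). The pair Doc2a and Doc2b differed in sign, at -1.24 (SE 0.05, adjusted p = 6.0e-10) and 1.71 (SE 0.11, adjusted p = 3.5e-08), and Syn2, a synapsin, was higher by 0.59 (SE 0.05). Syt17 and Cplx2, a complexin, were also higher, by 0.70 (SE 0.06) and 0.24 (SE 0.06).

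Of 39 transcription factors listed for forebrain patterning 33 were called, 20 higher and 13 lower. The list also holds members of other lists, which are not primarily patterning factors. They are Nr3c1, Nr3c2 and Klf9 of steroid hormone signalling and Egr3 and Nr4a2 of the immediate early genes, each of them called. Zbtb20, which specifies hippocampal fields, was at 11.8, 13.7, 13.7, 14.5 and 11.4 CPM in cortex and 46.1, 36.1, 42.2, 44.0 and 33.6 CPM in hippocampus, a log2 difference of 1.63 (SE 0.10, adjusted p = 2.9e-08). Neurod6, of the basic helix-loop-helix class, was higher by 1.81 (SE 0.07). Meis2, a TALE homeobox gene that striatal neurons also express, was lower at -1.61 (SE 0.10). Emx1 and Emx2, which act early in pallial development, differed in sign, at -0.77 (SE 0.12, adjusted p = 1.9e-04) and 0.61 (SE 0.08, adjusted p = 6.8e-05).

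The 2 corticosteroid receptors differed in opposite directions. Nr3c2, the mineralocorticoid receptor, was at 59.9, 58.4, 65.7, 64.9 and 62.9 CPM in cortex and 270.2, 245, 272, 249 and 247 CPM in hippocampus, with no overlap and a log2 difference of 2.04 (SE 0.05, adjusted p = 1.3e-11). Nr3c1, the glucocorticoid receptor, ran the other way at 185, 188, 191, 197 and 195 CPM in cortex and 125, 136, 129.7, 122 and 138 CPM in hippocampus, a log2 difference of -0.56 (SE 0.04, adjusted p = 3.3e-07). Hsd11b1, which regenerates corticosterone, was higher by 1.32 (SE 0.13), Cyp7b1, a steroid hydroxylase, by 1.12 (SE 0.07), and Fkbp5, a chaperone of these receptors, by 0.70 (SE 0.10). Of the 19 tested genes of this list 6 were higher and 9 lower, against 19.2% and 19.6% of all tested genes. The list is wider than the genes of corticosteroid signalling and shares members with other lists. Rora of the thalamic list, Rorb of the list of layers 2 to 4 and members of the striatal list are among the lower ones. Crym, which is on the lists of field CA3 and of layers 5 and 6, is among the higher ones.

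Axon guidance genes encode ligands and receptors that steer growing neurites and persist at adult synapses. Of 44 axon guidance genes 22 were higher and 18 lower in hippocampus, so that 40 of 44 were called against 38.8% of all genes. As the list was chosen with earlier results known, this share is a description only. Nrp1, the receptor of class 3 semaphorins, was at 47.4, 43.2, 41.5, 45.8 and 39.3 CPM in cortex and 185, 174, 206, 182 and 182 CPM in hippocampus. Its ligand Sema3a was at 42.0, 42.5, 46.3, 44.0 and 44.1 CPM in cortex and 2.59, 5.95, 3.63, 4.31 and 6.79 CPM in hippocampus. The receptor was higher in hippocampus, at 2.09 (SE 0.06, adjusted p = 4.5e-11), and this ligand lower, at -3.23 (SE 0.19, adjusted p = 2.1e-08). Sema3e, a ligand of plexin D1, was higher by 1.31 (SE 0.04) while its receptor Plxnd1 was lower at -1.90 (SE 0.09). Slit1 was higher by 2.02 (SE 0.14) and Epha4 by 0.84 (SE 0.05), and Efna5, an ephrin ligand, was lower at -2.04 (SE 0.06). Of 27 cadherins and protocadherins 8 were higher and 13 lower, against 19.2% and 19.6% of all tested genes. Pcdh20 was at 29.3, 27.0, 26.4, 29.8 and 27.7 CPM in cortex and 192, 199, 245, 214 and 195 CPM in hippocampus, a log2 difference of 2.89 (SE 0.07, adjusted p = 1.3e-11), whereas Cdh7, Cdh22 and Pcdh7 were lower at -2.49 (SE 0.13), -1.21 (SE 0.07) and -1.47 (SE 0.08).

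Of 31 genes of the extracellular matrix and of perineuronal nets 8 were higher and 10 lower, against 19.2% and 19.6% of all tested genes. Among them were Ncan, neurocan, at -0.35 (SE 0.04), Tnc, tenascin C, at 0.92 (SE 0.16), and Hapln1, a link protein, at 0.44 (SE 0.07). Against the same shares, 7 of 28 Wnt pathway genes were higher, among them Wnt7b (0.58, SE 0.06), and 11 lower, among them Dkkl1, Rspo1 and Wnt9a (-1.72, SE 0.15). The list holds Tcf4 (0.79, SE 0.05), which in mouse is the symbol of a basic helix-loop-helix E protein and not of the Wnt effector; without it 6 of 27 were higher and 11 lower. Nuclear genes of oxidative phosphorylation and ribosomal proteins had small differences. For oxidative phosphorylation 8 of 39 were called, each of them higher, a share near the 19.2% of all tested genes (median 0.09). For ribosomal proteins 4 of 44 were called, each of them higher, a share under that of all genes (median 0.09). Both counts moved with single libraries: the first ranged from 4 to 11, moving by more than 1.5 times without cortex replicate 2, 3 or 5 or hippocampus replicate 2, and the second from 4 to 10, without cortex replicate 1 or hippocampus replicate 3 or 5. Without cortex replicate 2 or hippocampus replicate 1, up to 3 ribosomal protein genes were lower.

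Immediate early genes are induced within minutes by neuronal activity, mostly through the cAMP response element-binding protein and serum response factor. Promoter windows of 3 lower members, chosen after their values were seen, are shown because they hold this element, a known feature of such promoters. The windows are RefSeq promoters of build GRCm38.p6, from 250 bases before to 50 bases after the annotated start, written 5′ to 3′ on the strand of the gene. Capitals mark the letters TGACGT, the core of the cAMP response element, searched on both strands, so that ACGTCA is the same motif on the other strand and TGACGTCA holds both in overlap. They are Fos at chr12:85473640-85473939 (plus strand), Npas4 at chr19:4989922-4990221 (minus strand) and Dusp1 at chr17:26508423-26508722 (minus strand).
Fos: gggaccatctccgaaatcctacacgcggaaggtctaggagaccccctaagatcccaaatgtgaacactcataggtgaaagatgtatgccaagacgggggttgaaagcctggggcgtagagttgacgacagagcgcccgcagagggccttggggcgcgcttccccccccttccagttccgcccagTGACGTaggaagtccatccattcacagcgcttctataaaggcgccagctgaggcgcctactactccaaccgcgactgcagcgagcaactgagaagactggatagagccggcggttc
Npas4: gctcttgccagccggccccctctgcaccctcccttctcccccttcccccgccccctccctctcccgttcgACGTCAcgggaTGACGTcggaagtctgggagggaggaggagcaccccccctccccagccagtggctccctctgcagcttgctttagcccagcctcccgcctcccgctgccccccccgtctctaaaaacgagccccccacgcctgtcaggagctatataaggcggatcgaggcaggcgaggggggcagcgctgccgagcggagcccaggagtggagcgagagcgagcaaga
Dusp1: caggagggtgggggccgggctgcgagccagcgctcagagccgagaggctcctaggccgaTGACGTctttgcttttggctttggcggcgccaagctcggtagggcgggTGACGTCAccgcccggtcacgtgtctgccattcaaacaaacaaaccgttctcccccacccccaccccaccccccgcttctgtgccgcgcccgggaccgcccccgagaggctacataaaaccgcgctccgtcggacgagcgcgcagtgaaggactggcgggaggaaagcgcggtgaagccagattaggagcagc

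The motif occurred in 7.51% of 32851 promoter windows of this length, and in 12 of the 32 windows of 20 immediate early genes that the table holds, some of which overlap. By gene, 10 of the 20 had a window with it: 7 of the 10 that were lower in hippocampus, 2 of the 4 that were higher and 1 of the 6 not called. Lower members without a window, Arc, Egr1 and Egr3 among them, are not in these counts. Since genes hold different numbers of windows, the 7.51% of windows is no background for counts of genes. Whether the motif goes with the direction was not tested. A match is a description of the letters, not of binding. Of the 25 genes tested, 15 were lower in hippocampus and 4 higher (median -0.71). Fos, the AP-1 subunit, was at 24.6, 34.8, 47.5, 24.4 and 62.1 CPM in cortex and 11.01, 9.29, 20.2, 10.3 and 25.1 CPM in hippocampus. Npas4, a factor specific to neuronal activity, was at 13.2, 12.7, 32.3, 11.96 and 21.8 CPM in cortex and 8.48, 2.95, 17.2, 7.10 and 9.94 CPM in hippocampus. Dusp1, a phosphatase of MAP kinases, was at 27.8, 27.5, 40.5, 26.7 and 44.7 CPM in cortex and 14.0, 11.04, 15.2, 11.5 and 24.9 CPM in hippocampus. The groups overlapped for Fos and Npas4 but not for Dusp1, and in both regions replicates 3 and 5 were the highest for each of the 3 genes. Log2 differences were -1.35 (SE 0.32, adjusted p = 0.0042) for Fos, -1.02 (SE 0.38, adjusted p = 0.049) for Npas4 and -1.12 (SE 0.22, adjusted p = 0.0012) for Dusp1.

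Egr1, a zinc finger factor, was at 337, 411, 550.5, 388 and 599 CPM in cortex and 169.5, 131, 206, 135 and 256 CPM in hippocampus, a log2 difference of -1.35 (SE 0.20, adjusted p = 1.0e-04). Ier5, an early response gene, had a log2 difference of -1.04 (SE 0.06, adjusted p = 1.6e-08). Arc, which regulates AMPA receptor traffic, was lower at -0.93 (SE 0.25), and Egr3 at -0.80 (SE 0.08). The 4 genes that were higher in hippocampus were Jun (1.07, SE 0.08), the orphan receptors Nr4a3 (1.01, SE 0.15) and Nr4a2 (0.61, SE 0.16), and Bdnf. Jun was at 51.2, 55.7, 52.0, 54.9 and 64.8 CPM in cortex and 107, 108, 134, 125 and 114 CPM in hippocampus, with no overlap. The call of Npas4 was lost without cortex replicate 3 or 5 and without hippocampus replicate 1, 2, 4 or 5, with edgeR adjusted p-values of 0.067 to 0.16. It was also lost with DESeq2 (adjusted p = 0.079), total counts (0.052), no filter on low counts (0.053) and all 20 libraries in the fit (0.086). The number of lower members ranged from 11 to 15 over those fits.

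The question set by the design was whether the Ncs1-/- genotype altered the difference between regions. The interaction of region and genotype, fitted over all 20 libraries, called 0 of 15310 genes at an adjusted p of 0.05 in edgeR (0%). Without adjustment, 214 genes (1.4% of those tested) had a p under 0.05. That is fewer than chance alone would bring under 0.05 if no gene had an interaction. With the replicate number as a block 325 genes had a p under 0.05. Why the count was this low was not tested. The alternative tool DESeq2 called 1 gene, and so did edgeR without knockout cortex replicate 5. Of the 5775 genes called between regions in knockout and tested in wild type, 5751 (99.6%) had the same sign there, where 5861 of 14849 genes (39.5%) were called, as a description of 2 comparisons with no shared libraries. Of the 24 with opposite signs 0 were called in wild type. The absolute gap between the knockout and wild-type log2 differences of called genes had a median of 0.06 and a 95th percentile of 0.37, and the SE of the interaction had a median of 0.11. A p that misses the threshold does not show that the regional difference was the same in both genotypes.

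**Figure D5:**
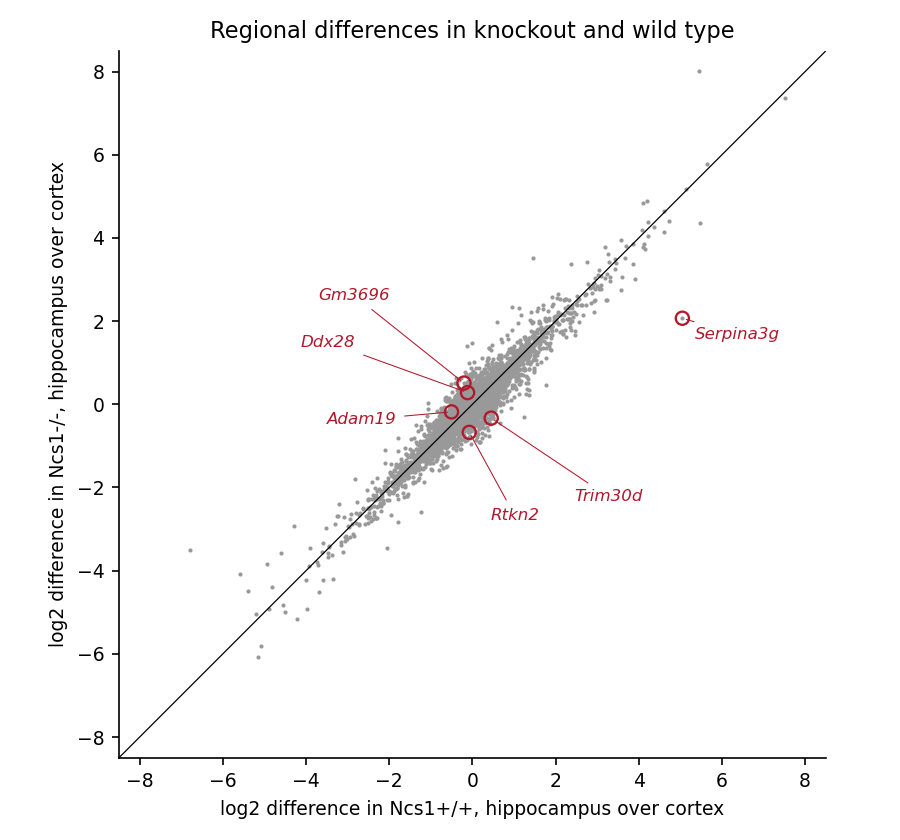
Log2 differences, hippocampus over cortex, of genes tested in both genotypes, with knockout on the vertical and wild type on the horizontal axis. Most points lie near the line of equality; the 6 genes with the smallest interaction p are ringed and named, and Serpina3g lies farthest from the line among them.

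The smallest interaction p belonged to Serpina3g, a serine protease inhibitor from a cluster of near-identical genes that can share reads. It was at 0.523, 1.13, 0.472, 1.31 and 0.182 CPM in knockout cortex and 3.66, 2.80, 3.09, 3.03 and 3.04 CPM in knockout hippocampus, with no overlap and a log2 difference of 2.07 (SE 0.32, adjusted p = 1.8e-04). In wild type it was at 0.169, 0.0942, 0.0386, 0.0974 and 0.104 CPM in cortex and 3.87, 2.95, 3.23, 3.41 and 3.50 CPM in hippocampus, a log2 difference of 5.05 (SE 0.24). The interaction had an unadjusted p of 8.0e-06 and an edgeR adjusted p of 0.12, and Serpina3g was the gene called by DESeq2 (interaction log2 difference -3.06) and by edgeR without knockout cortex replicate 5 (-3.22). Rtkn2, a rhotekin family protein, Adam19, a metalloprotease, Gm3696, Trim30d, a tripartite motif protein, and Ddx28, an RNA helicase of mitochondria, followed with unadjusted p-values from 0.0015 to 0.0031 and adjusted p-values of 1.0. Rtkn2 differed by -0.67 (SE 0.13) in knockout and -0.08 (SE 0.12) in wild type. Adam19 differed by -0.18 in knockout and -0.50 (SE 0.07) in wild type. Its knockout call was lost without cortex replicate 1, 3, 4 or 5 and without hippocampus replicate 1, 3 or 4 (edgeR adjusted p-values of 0.051 to 0.082). It was also lost with total counts (edgeR adjusted p = 0.063). For Dsp the 95% interval of the interaction was -2.06 to 1.72, for Prox1 -0.50 to 0.35, for Drd1 -0.77 to 0.26 and for Ncs1 itself -0.17 to 0.08 on the log2 scale.

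Genes listed for 1 region only could not be tested. There were 294 such genes in cortex and 438 in hippocampus, of which 6 and 2 reached a mean of 1 CPM in knockout. In cortex the highest were Serpina9, a serine protease inhibitor, at 6.03, 5.83, 4.51, 6.03 and 5.24 CPM, and Gm10635, Tfap2d, a transcription factor of the AP-2 family, and Lhx8, a LIM homeobox gene of basal forebrain cholinergic neurons, with means of 3.95, 2.61 and 2.54 CPM. In hippocampus they were Pla2g2f, a secreted phospholipase, at 1.69, 1.92, 2.54, 2.07 and 1.47 CPM, Sult5a1, a sulphotransferase, Avpr1b, the vasopressin 1b receptor that marks field CA2, and Dmrt3, a doublesex-related transcription factor, with means of 1.06, 0.937 and 0.880 CPM. In each table no listed gene had fewer than 10 counts over its 10 libraries. Why a gene was listed for 1 region only was not tested.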

How the data were processed

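Total RNA from frontal cortex and hippocampus of Ncs1-/- and Ncs1+/+ mice was sequenced, 5 libraries per group. The authors deposited expected counts per gene, 1 table for each region, made with STAR 2.7.3a, Partek and the build mm10, per the submitters' processing notes. No source used here states the strand setting or annotation. Tables were joined on gene symbol (17148 genes), and counts were rounded to whole numbers. Genes were kept by edgeR's filterByExpr (15032) and scaled by TMM. The 2 knockout regions were compared with edgeR 4.0.16 (quasi-likelihood test, Benjamini-Hochberg adjusted p of 0.05) in R 4.3.3, and the interaction with genotype over all 20 libraries. Printed levels are CPM with TMM factors over all 20 libraries. For Ncs1, log2 CPM was compared by exact permutation. Tables were listed separately and region follows the lane, as stated above. Alternatives were other scalings and filters, DESeq2 1.42.0, limma 3.58.1 (voom), a replicate block, a 1.5-fold threshold, all 20 libraries in 1 fit, the 45S pre-ribosomal RNA left out, each library left out, and, chosen after seeing the data, the 3 libraries with the highest choroid plexus sums left out.

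The members and lists were chosen with earlier results of these data known. Named genes were Ncs1, the 12 largest differences and 6 smallest p-values per direction, the 6 smallest interaction p-values, up to 4 genes per table listed for 1 region only, and of each list up to 6 members with the smallest p, those called against its direction, up to 4 with the largest p, or any of a list of 15 or fewer. Another 15 genes were chosen after their values were seen: Arc, Cx3cr1, Dusp1, Emx2, Fos, Gria3, Htr2a, Ncald, Npas4, Ppp1r1b, Pvalb, Slc32a1, Slit1, Vsnl1 and Zbtb20. Some genes that this rule names are not reported here. Scripts were tested on simulated data. Promoter windows came from RefSeq, build GRCm38.p6.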

Additional observations from a re-analysis of the deposited data

Results flagged for a closer look

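In 152 groups of 5 knockout libraries (genes shown by library and list sums, in each region), the highest or lowest library was checked for standing apart from the other 4. Chance sets about 1 in 20 such groups apart. The choroid plexus sum was 645 CPM in cortex replicate 1 and 5858 CPM in hippocampus replicate 2, against 219.6 to 237 and 162 to 849 CPM in the other libraries of each region. Ttr stood apart in the same libraries, at 207 and 3119 CPM. Sulf1 was 56.0 CPM in hippocampus replicate 2, against 5.09 to 12.3, and Ppp1r1b 71.0 CPM there, against 31.3 to 38.9.

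Among neuronal genes, Hpca was 1521 CPM in hippocampus replicate 1 (others 1060 to 1189.9), Scn3b 161 CPM in cortex replicate 4 (others 139 to 145), Slc32a1 108 CPM in cortex replicate 1 (others 80.6 to 86.8), and Tbr1 170.2 CPM in cortex replicate 4 (others 181 to 186). Of the list sums, immature dentate neurons and neural progenitors were at 179.7 CPM in cortex replicate 5 (others 192 to 197), oligodendrocytes at 4208 CPM in cortex replicate 3 (others 4522 to 4571) and GABAergic interneurons at 1754 CPM in hippocampus replicate 4 (others 1620.3 to 1658). The part of these libraries in other differences was tested only by leaving them out.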

How the results depend on the processing

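Between the knockout regions, 5789 to 6414 genes were called under other scalings and tools, with all 20 libraries in the fit or without the filter on low counts, and 5636 with at least 1 CPM in 5 libraries, against 5838. A test against a 1.5-fold difference called 1193 genes, 496 higher and 697 lower. Without the 3 libraries with the highest choroid plexus sums, an alternative chosen after seeing the data, 4645 genes were called (2259 higher, 2386 lower). Leaving out 1 library gave 5122 to 5981 calls. For the interaction, the calls ranged from 0 to 1 when 1 library was left out, and DESeq2 called 1 gene; other alternatives called 0. Replicate numbers are not stated to pair libraries: in knockout 4 of 5 same-numbered pairs correlated above 0.1 (lowest -0.17, highest 0.24), and 2 of 5 libraries correlated best with their own number in both directions. In wild type 5 of 5 pairs correlated above 0.1 (0.12 to 0.47), and 4 of 5 libraries correlated best with their own number; a block there, added after seeing the data, gave 6629 calls against 5861. In knockout, a replicate block gave 6250 calls (3036 higher, 3214 lower), and with a block the interaction called 0; of the genes named, only Nmb lost its call and C1qa gained one. Signs turned for 5 uncalled genes. Without 1 library each, log2 differences ranged from -0.052 to 0.11 for Wfs1 (below 0 without hippocampus replicate 2 or 5), from -0.012 to 0.046 for Grin1 (without hippocampus replicate 3), and, below 0 without hippocampus replicate 2 each, from -0.13 to 0.73 for Igf2, from -0.21 to 1.46 for Enpp2 and from -0.72 to 2.21 for Clic6. Clic6 also turned with limma-voom (-0.73) and with the block (-0.058). Without the 3 libraries with the highest choroid plexus sums Clic6 was -2.31 and Enpp2 -0.53, both called, and Adam19, Draxin, Gng7, Grin2c, Nmb, Npas4, Nupr1 and Shisa9 lost their calls. The cause was not tested. The filter left out 2116 genes with low counts, of which 230 were called when it was dropped (101 higher, 129 lower).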
